A study of Mus musculus with 24 samples.

Results

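The 3 Period genes, Per1, Per2 and Per3, and the 2 casein kinase 1 genes Csnk1d and Csnk1e were followed by symbol through a table of 47480 genes measured in 24 mouse embryonic fibroblast libraries. All 5 passed the filter on low counts that left 14772 genes for testing. The fibroblasts were wild type and received siCTRL or siCop1, read here as a non-targeting siRNA and an siRNA against Cop1, the substrate receptor of a ubiquitin ligase. Cells of each kind were given DMSO or KL001, a small molecule that stabilises cryptochrome proteins, and were left without Dexa or given Dexa, a term kept as the labels write it. This made 8 groups of 3 libraries: siCTRL DMSO, siCTRL KL001, siCop1 DMSO and siCop1 KL001, each without and with Dexa. The sources used here give no dose, exposure time, siRNA sequence or origin of the cells, and nothing in the labels says that replicates were separate cultures. All p-values therefore measure the spread between these libraries, which may be technical.

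PER proteins form the negative limb of the circadian clock. They enter the nucleus with cryptochromes and hold back CLOCK and BMAL1, the activators that drive the Per and Cry genes through E-box elements, so the genes are switched off by their own products. CSNK1D and CSNK1E, the delta and epsilon forms of casein kinase 1, phosphorylate PER proteins and thereby set how fast these are degraded. Per1 and Per2 are also known to respond to glucocorticoid and cyclic AMP signals, which in cultured fibroblasts can reset the clock. The comparisons ask how far Dexa induction and KL001 repression offset each other at these genes, and whether siCop1 changes either.

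Promoter windows are shown for Per1 and Per3 because these genes differed most within the family in their response to Dexa. RefSeq promoter entries (GRCm38.p6) matched 3 of the 5 members, Per1, Per3 and Csnk1e. Each run below is the 250 bases before an annotated start, on the gene's own strand, with capitals on every match, on either strand, to the motifs searched. These were the E-box CACGTG, the E-box-like CACGTT, the cyclic AMP response element TGACGTCA, its core TGACG (which every full element also holds), the D-box TTATGNAA, the glucocorticoid receptor hexamer TGTTCT and the full glucocorticoid receptor site, which holds that hexamer.
Per1 upstream window at chr11:69098699-69098948: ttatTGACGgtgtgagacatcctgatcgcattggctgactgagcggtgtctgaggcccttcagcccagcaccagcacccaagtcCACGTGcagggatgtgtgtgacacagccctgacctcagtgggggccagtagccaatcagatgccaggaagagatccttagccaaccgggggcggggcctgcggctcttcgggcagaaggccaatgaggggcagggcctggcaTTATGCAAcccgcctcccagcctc
Per1 downstream window at chr11:69099902-69100151: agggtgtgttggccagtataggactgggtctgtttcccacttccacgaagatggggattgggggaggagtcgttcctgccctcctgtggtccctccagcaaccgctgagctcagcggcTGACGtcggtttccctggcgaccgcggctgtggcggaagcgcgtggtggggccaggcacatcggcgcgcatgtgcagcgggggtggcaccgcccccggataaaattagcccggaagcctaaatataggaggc
Per3 window at chr4:151044666-151044915: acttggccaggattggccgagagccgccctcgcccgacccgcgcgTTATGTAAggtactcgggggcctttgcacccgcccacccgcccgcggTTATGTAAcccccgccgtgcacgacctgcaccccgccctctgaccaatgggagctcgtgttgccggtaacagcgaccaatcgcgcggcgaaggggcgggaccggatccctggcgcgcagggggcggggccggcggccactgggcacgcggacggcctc
In GRCm38, both Per1 windows lie on the plus strand inside the annotated Per1 gene. The upstream one shares 1 base with an exon and the downstream one shares 0, so they are otherwise intronic. The Per3 window is on the minus strand and ends where the annotated gene begins.

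The upstream Per1 window held 1 E-box, beginning 166 bases before its start, 1 D-box at 24 bases and 1 cyclic AMP core at 246 bases. The downstream Per1 window held 1 such core, at 132 bases. Per3 had 2 D-boxes, at 205 and 158 bases, and no other match. Of the 4 overlapping Csnk1e windows, 2 held no match, and the other 2 held the cyclic AMP core and the glucocorticoid receptor hexamer, at 158 and 154 bases in one of them. Across all 32851 mouse windows of this length, 6.021% held the E-box, 3.848% the E-box-like motif, 1.546% the full cyclic AMP element and 17.765% its core. The D-box was in 3.068%, the receptor hexamer in 16.085% and the full receptor site in 0.009%. A match is a run of letters and not a measured binding site.

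By GENCODE annotation (GRCm38), Per1 lies at chr11:69095217-69109960 on the plus strand and Per2 at chr1:91415982-91459324 on the minus strand. Per3 lies at chr4:151003652-151044665, Csnk1d at chr11:120961749-120991330 and Csnk1e at chr15:79417856-79455566, all on the minus strand. Csnk1d shares 63 exon bases (1.254% of its exons) with the antisense gene Gm28192, and Csnk1e shares 267 (4.052%) with the antisense gene Gm16059. The library kit keeps strand, but the sources used here do not say whether counting used it, and counts in those overlaps are uncertain.

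Libraries held 21409988 to 27875023 counts, with a median of 25337292. Cop1, listed as Rfwd2, was at 25.0 to 29.7 CPM, counts scaled to the library total, in the 12 siCTRL libraries and 4.33 to 5.79 CPM in the 12 siCop1 libraries. Its log2 change lay between -2.56 and -2.44 in the 4 settings, in the direction of the labels. All 7 fibroblast markers were present, with a summed level of 35020 to 50770 CPM. The 5 heart muscle markers summed to 16.75 to 58.62 CPM in siCTRL DMSO without Dexa and to 0.6776 to 89.43 CPM in the other siCTRL groups, where replicate 2 alone was above 10 CPM. They summed to at most 2.721 CPM in siCop1 libraries. Of these heart markers, Myh6 was at 0 in 15 libraries. The skeletal muscle factors Myod1 and Myog were at 0 in all 24 libraries. Ckm, the third of the 3 skeletal muscle markers, was at 0 in 14 libraries and reached 6.447 CPM. These 3 summed to 1.263 to 5.699 CPM in siCTRL DMSO without Dexa and 0 to 6.447 CPM in the other siCTRL groups. In siCop1 libraries their sum was at most 0.08095 CPM. Since these are bulk samples, fewer cells of a type and less RNA per cell cannot be told apart.

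Per unit of length, casein kinase 1 delta had the most abundant transcript of the 5 in untreated control cells. CPM per kilobase of merged exons in siCTRL DMSO without Dexa was 36.6 ± 1.16 for Csnk1d, 18.7 ± 0.796 for Csnk1e, 7.33 ± 0.160 for Per1, 4.65 ± 0.301 for Per3 and 2.68 ± 0.242 for Per2 (SD, n = 3 each). With Dexa in the same cells, Per1 stood at 34.1 ± 0.518 CPM per kilobase and Per2 at 7.03 ± 0.242, so that Per1 came close to the 35.5 ± 0.348 of Csnk1d and Per2 passed the 4.10 ± 0.293 of Per3. Merged exon length takes no account of which isoforms were used.

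Per1 rose with Dexa in all 4 settings. Without Dexa its 3 libraries read 40.3, 41.8 and 41.8 CPM in siCTRL DMSO, 37.6, 35.3 and 35.0 in siCTRL KL001, 41.9, 40.2 and 41.3 in siCop1 DMSO and 34.9, 36.5 and 35.6 in siCop1 KL001. With Dexa they read 192, 195 and 189, then 194, 197 and 193, then 197, 185 and 193, and then 190, 190 and 199 CPM in the same order of settings. The 12 libraries with Dexa were all above the 12 without, and within the 4 Dexa groups neighbouring groups overlapped. Among the groups without Dexa, both DMSO groups lay above both KL001 groups, while siCTRL and siCop1 overlapped.

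The log2 change of Per1 with Dexa was 2.22 (SE 0.035, adjusted p 2.5e-28) in siCTRL DMSO, 2.44 in siCTRL KL001, 2.22 in siCop1 DMSO and 2.43 in siCop1 KL001. These are 4.66-, 5.41-, 4.67- and 5.40-fold increases. Only 0.636% of the genes tested had a larger log2 change in siCTRL DMSO. In that comparison 4 of the 5 members passed an adjusted p of 0.05, beside 26.8% of all genes tested. Members passing numbered 3 of 5 in siCTRL KL001, 3 in siCop1 DMSO and 3 in siCop1 KL001, beside 26.8%, 23.7% and 24.5% of all genes.

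**Figure D1:**
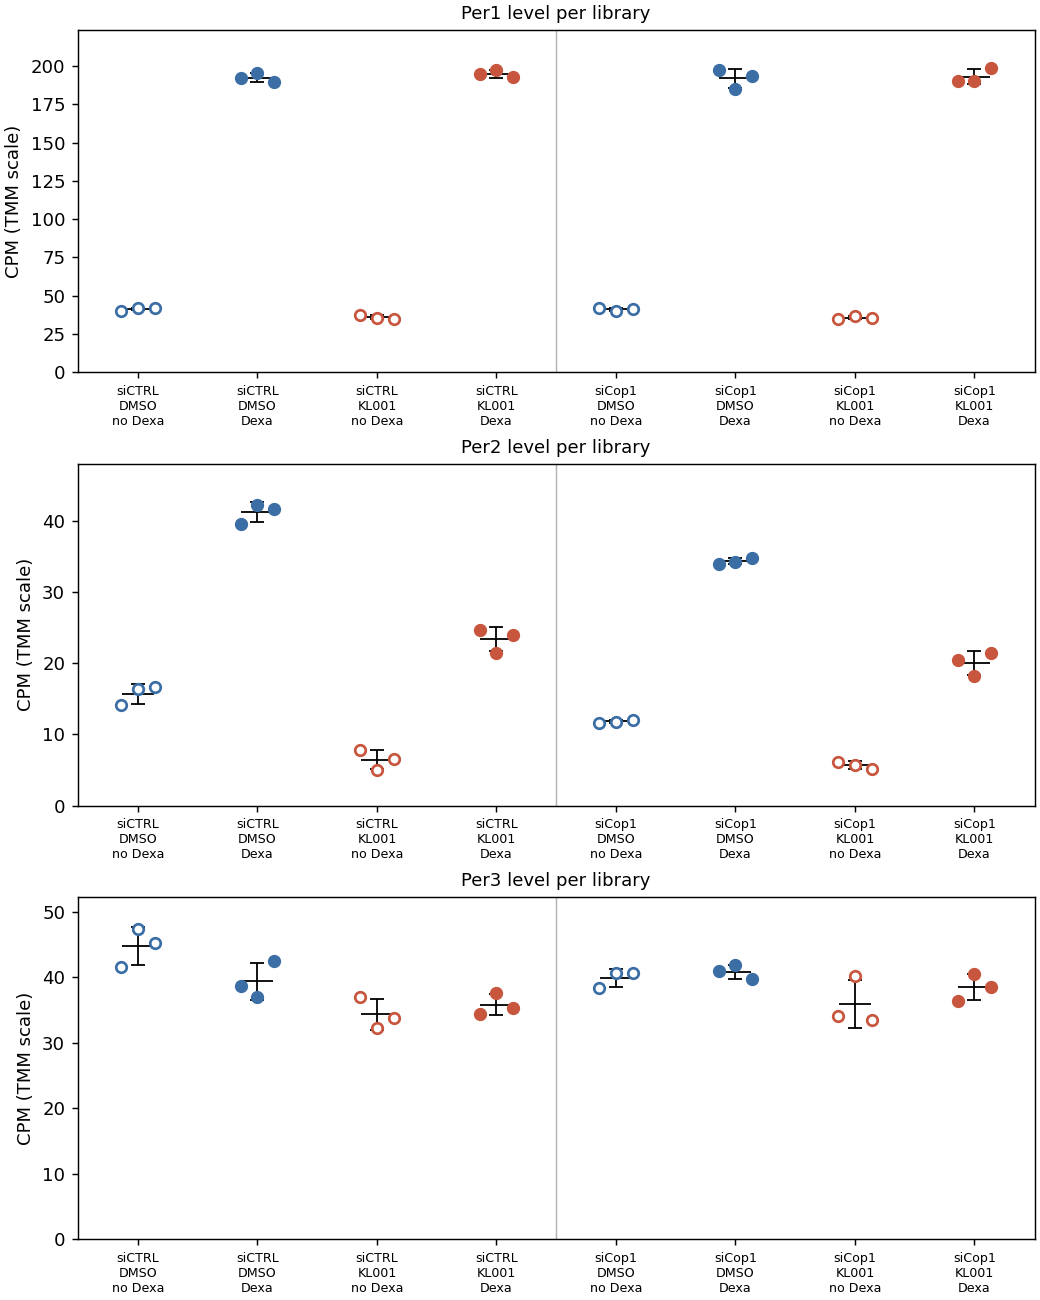
Level of Per1, Per2 and Per3 in each of the 24 libraries, in CPM on the TMM scale, by group; open points are without Dexa, filled points with Dexa, blue is DMSO and red is KL001, and bars show the mean and SD of 3 libraries. Per1 splits into a high set with Dexa and a low set without, Per2 moves with both treatments, and Per3 stays between 32.2 and 47.4 CPM.

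Per2 moved with both treatments, between 5.06 and 42.2 CPM, and its highest group mean was 7.26-fold its lowest, against 5.46-fold for Per1 and less for the other members. Without Dexa its libraries read 14.1, 16.4 and 16.6 CPM in siCTRL DMSO and 7.85, 5.06 and 6.50 in siCTRL KL001. In siCop1 cells without Dexa they read 11.6, 11.8 and 12.1 CPM under DMSO and 6.16, 5.75 and 5.08 under KL001. With Dexa they read 39.5, 42.2 and 41.6 CPM in siCTRL DMSO and 24.6, 21.5 and 23.99 in siCTRL KL001. The siCop1 libraries with Dexa read 33.9, 34.2 and 34.7 CPM under DMSO and 20.5, 18.2 and 21.4 under KL001. Ordered by mean, the groups ran from siCop1 KL001 (5.66) and siCTRL KL001 (6.47) without Dexa, through siCop1 DMSO (11.8) and siCTRL DMSO (15.7) without Dexa, to siCop1 KL001 (20.0), siCTRL KL001 (23.4), siCop1 DMSO (34.3) and siCTRL DMSO (41.1) with Dexa. The lowest pair overlapped, and every other pair of neighbours was separate.

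Dexa raised Per2 by 1.39 (SE 0.077, adjusted p 1.04e-14) on the log2 scale in siCTRL DMSO, 1.85 in siCTRL KL001, 1.54 in siCop1 DMSO and 1.82 in siCop1 KL001, which is 2.63- to 3.60-fold. KL001 lowered it in every setting, with log2 changes of -1.27 (SE 0.101, adjusted p 1.01e-09) in siCTRL without Dexa, -0.81 (SE 0.073) with Dexa, and in siCop1 of -1.06 (SE 0.108) without and -0.78 (SE 0.077) with Dexa. In siCTRL without Dexa, 0.399% of all genes tested changed more than Per2 did. The 3 Per2 libraries of siCTRL KL001 without Dexa had a coefficient of variation of 21.6%, the widest of any member in any group.

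KL001 also lowered Per1, by a smaller amount and in the groups without Dexa. The log2 change was -0.20 (SE 0.039, adjusted p 0.00158) in siCTRL and -0.20 (SE 0.039, adjusted p 0.00106) in siCop1, with no overlap between the groups in either. With Dexa it was 0.02 (95% interval -0.05 to 0.08) and 0.01 (-0.06 to 0.07), which did not pass. When the fit held only the groups compared, the siCTRL change without Dexa was -0.20 with an adjusted p of 0.103, where the 5 alternatives ranged from 0.00143 to 0.103. Without Dexa, 3 of 5 members passed under KL001 in siCTRL and 2 in siCop1, beside 6.73% and 4.09% of all genes. With Dexa, 1 passed in each, beside 10.6% and 5.46%. The summed level of the 7 fibroblast markers was lower under KL001 in every setting. In siCTRL without Dexa it was 48040 to 50770 CPM under DMSO and 40880 to 44880 under KL001, and with Dexa 46630 to 47120 and 39920 to 41750. The siCop1 sums were 42270 to 43670 and 36100 to 37330 CPM without Dexa, then 39950 to 41580 and 35020 to 36920 with it. The groups did not overlap in any setting, and the part of this shift in the KL001 results was not tested. By the same sums, libraries with Dexa lay below those without it in both DMSO settings, and the ranges overlapped in both KL001 settings. The part of that shift in the Dexa results was not tested either.

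Per3, the third paralogue, is thought to be less central to the core oscillator than Per1 and Per2, and it varied least of the 3 here. Its libraries read 41.6, 47.4 and 45.2 CPM in siCTRL DMSO without Dexa and 38.6, 37.0 and 42.5 with Dexa. In siCTRL KL001 they read 37.0, 32.2 and 33.7 CPM without Dexa and 34.4, 37.6 and 35.3 with Dexa. The 12 siCop1 libraries lay between 33.5 and 41.9 CPM. The untreated siCTRL DMSO group had the highest mean, 44.7 CPM, and siCTRL KL001 without Dexa the lowest, 34.3 CPM, and every pair of neighbours in the order of means overlapped.

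KL001 lowered Per3 in siCTRL without Dexa, with a log2 change of -0.38 (SE 0.065, adjusted p 3.06e-04), a 1.30-fold decrease with no overlap. In siCTRL with Dexa the change was -0.14 (adjusted p 0.194), and the siCop1 cells gave -0.15 (0.244) without and -0.09 (0.581) with Dexa, none of which passed. All 3 siCTRL DMSO libraries without Dexa exceeded 10 CPM of summed heart muscle markers. The part of this in the siCTRL changes from that group was not tested. Dexa lowered Per3 in siCTRL DMSO, with a log2 change of -0.18 (SE 0.064, adjusted p 0.0357), although the groups overlapped. That call ended without siCTRL DMSO replicate 2 (-0.13, adjusted p 0.214) or replicate 3 (-0.16, 0.123) of the group without Dexa. It also ended without replicate 1 (-0.15, 0.148) or replicate 2 (-0.13, 0.197) of the group with Dexa. A fit restricted to the groups compared gave -0.18 with an adjusted p of 0.0674, and the 5 alternatives ranged from 0.00899 to 0.0674. In the other 3 settings Per3 changed by 0.04 to 0.10 with Dexa and did not pass. Without siCop1 KL001 without Dexa replicate 2, the library at 40.1 CPM, its Dexa change in siCop1 KL001 was 0.19 (adjusted p 0.0366) and its KL001 change in siCop1 without Dexa was -0.24 (0.0354).

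**Figure D2:**
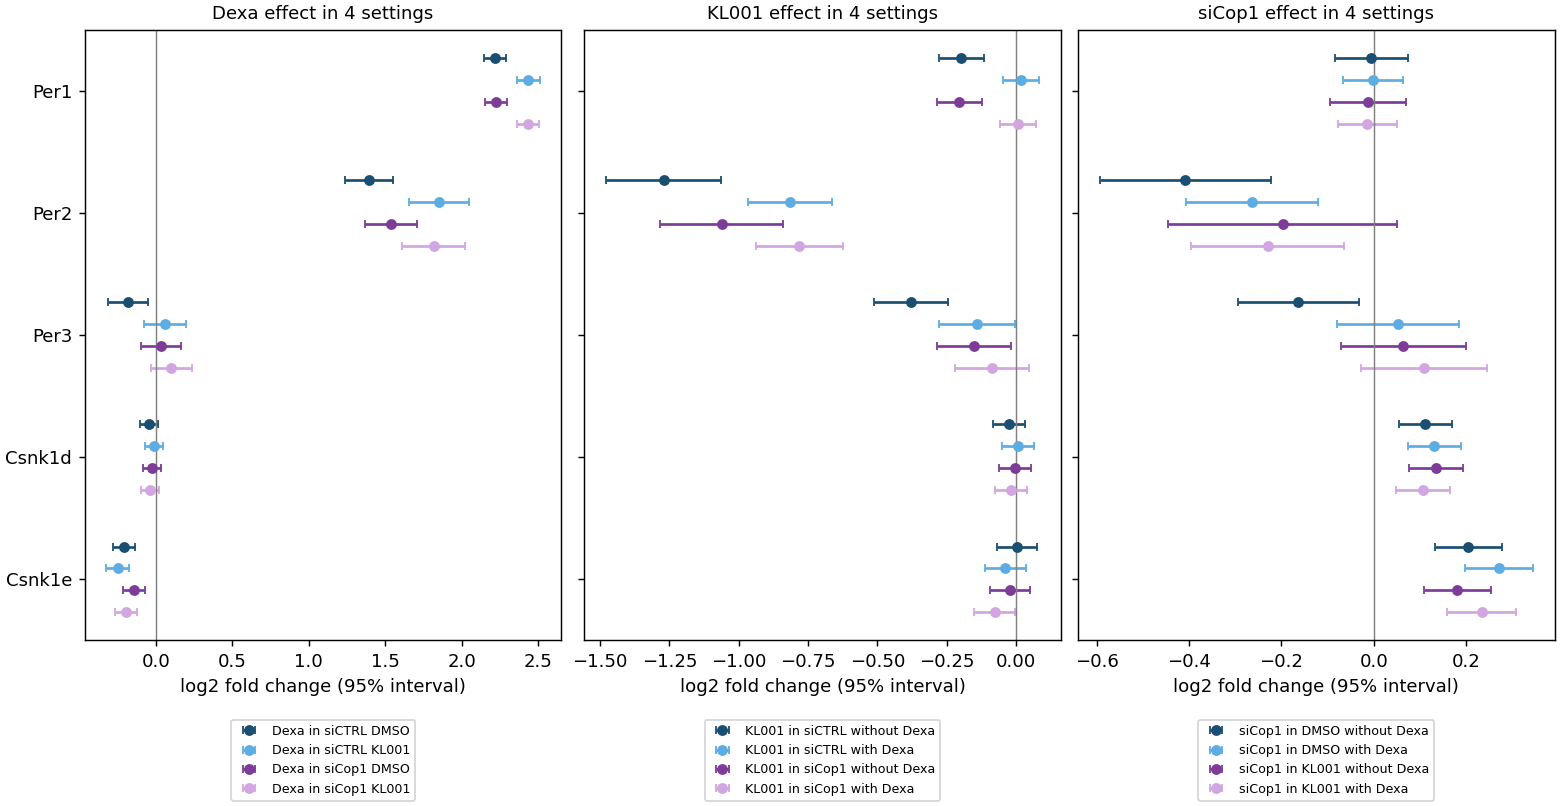
Log2 fold changes of the 5 members under Dexa, KL001 and siCop1 (panels left to right, each with its own axis range), each in 4 settings, with 95% intervals from the edgeR fit. Per1 lies above 2 under Dexa, Per2 is the member displaced furthest under KL001, and the 2 kinase genes lie above 0 under siCop1.

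To set Dexa induction against KL001 repression, cells given both were compared with cells given neither. For Per1 the joint change was 2.24 (SE 0.035) on the log2 scale in siCTRL and 2.23 (SE 0.035) in siCop1, next to 2.22 for Dexa alone in each. Per2 under both treatments stayed above its untreated level but below that of Dexa alone. It was 0.58 (SE 0.082, adjusted p 1.73e-06) higher in siCTRL, 1.49-fold, and 0.76 (SE 0.088, adjusted p 6.46e-08) higher in siCop1, 1.69-fold. The joint change of Per3 was -0.32 (SE 0.065, adjusted p 2.42e-04) in siCTRL and -0.05 (adjusted p 0.638) in siCop1, where it did not pass. That of Csnk1e was -0.25 (adjusted p 2.17e-06) and -0.22 (1.31e-05), and that of Csnk1d -0.04 in both, which did not pass. Members passing were 4 of 5 in siCTRL and 3 of 5 in siCop1, beside 33% and 27.8% of all genes. These joint comparisons share their untreated libraries with the single ones.

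Of the 2 cryptochrome genes on the list of PER and CRY complex genes, Cry1 moved further than Cry2 and ended below its untreated level under both treatments. The log2 change of Cry1 with Dexa in siCTRL DMSO was 0.56 (adjusted p 8.66e-10), and the joint treatment left it at -1.18 in siCTRL and -1.22 in siCop1. Cry2 changed by 0.27 (adjusted p 1.74e-05) with Dexa, and the joint treatment left it at -0.12 (adjusted p 0.0469) in siCTRL and 0.06 (adjusted p 0.401, not passing) in siCop1. Of the 13 E-box activators and clock-driven genes described further on, 5 rose and 4 fell under the joint treatment in siCTRL and 6 rose and 3 fell in siCop1, beside 33% and 27.8% of all genes changed in either direction. Nfil3, a repressor at D-box elements, rose by 1.28 and 1.24, and Hlf, an activator at such elements, by 0.81 and 1.32. Npas2, a CLOCK paralogue, changed by -1.94 in siCTRL and -1.60 in siCop1 under the joint treatment, and Dbp, a clock-driven transcription factor, by -0.88 and -0.56. Of 12 genes of glucocorticoid and CREB input, 3 rose in each cell kind, while 3 fell in siCTRL and 2 in siCop1. The glucocorticoid-induced gene Fkbp5 rose by 4.27 and 3.56, Tsc22d3, which encodes GILZ, by 2.42 and 2.69, and Sik1, a kinase in CREB signalling, by 1.43 and 1.41.

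Whether the effect of KL001 depended on Dexa was tested by interaction terms, positive where KL001 lowered a gene less with Dexa. For Per1 the term was 0.22 (95% interval 0.11 to 0.32, unadjusted p 0.000183, adjusted p 0.269) in siCTRL and 0.21 (0.11 to 0.31, unadjusted p 0.000239, adjusted p 0.186) in siCop1. For Per2 it was 0.46 (0.20 to 0.72, unadjusted p 0.00126, adjusted p 0.444) in siCTRL and 0.28 (0.0044 to 0.55, unadjusted p 0.0467, adjusted p 1) in siCop1. None of the 5 members passed in either cell kind by edgeR's quasi-likelihood test, beside 0% and 0.0677% of all genes, that is 0 and 10 genes. At an unadjusted p under 0.05 there were 888 and 670 genes, and DESeq2 called 3 and 12. With no filter on low counts 133 genes passed in siCTRL, Per2 among them (0.46, adjusted p 0.00516, where the 5 alternatives ranged from 0.00516 to 0.983). The larger KL001 decrease of Per2 without Dexa than with it was thus not called in the fit over all genes.

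Ratios of counts within a library compare members without regard to depth. The Per1 to Per2 ratio was 2.64 ± 0.191 in siCTRL DMSO without Dexa, 4.67 ± 0.160 with Dexa, 5.72 ± 1.1 under KL001 without Dexa and 8.37 ± 0.708 under both (SD, n = 3). In siCop1 cells the same 4 ratios were 3.48 ± 0.116, 5.60 ± 0.203, 6.34 ± 0.672 and 9.68 ± 0.681. Both treatments therefore shifted the pair towards Per1, Dexa by raising Per1 more and KL001 by lowering Per2 more. Over the 4 settings, the log2 ratio moved by 0.67 (SE 0.054) with Dexa, 0.89 with KL001 and 0.26 with siCop1. The exact two-sided permutation test within settings gave p 1.25e-05 for Dexa and KL001, the smallest its 160000 rearrangements can give, and 0.000525 for siCop1 (adjusted over 12 ratios 2.5e-05, 2.5e-05 and 0.0007).

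Against Per3, Per1 moved by 2.32 with Dexa and Per2 by 1.65, both at the smallest p the rearrangements can give (1.25e-05, adjusted 2.5e-05). With KL001 the Per2 to Per3 ratio moved by -0.80 (exact permutation p 1.25e-05, adjusted 2.5e-05), lower in all 4 settings. The Per1 to Per3 ratio moved by 0.10 with KL001 (exact permutation p 0.0204, adjusted 0.0245), in 3 of 4 settings upward. That call ended without siCop1 DMSO without Dexa replicate 2 (0.09, adjusted p 0.0545) or siCop1 KL001 without Dexa replicate 3 (0.09, 0.0629). With siCop1 the Per2 to Per3 ratio moved by -0.28 (exact permutation p 0.000138, adjusted 0.000207) and the Per1 to Per3 ratio by -0.02 (exact permutation p 0.565).

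**Figure D3:**
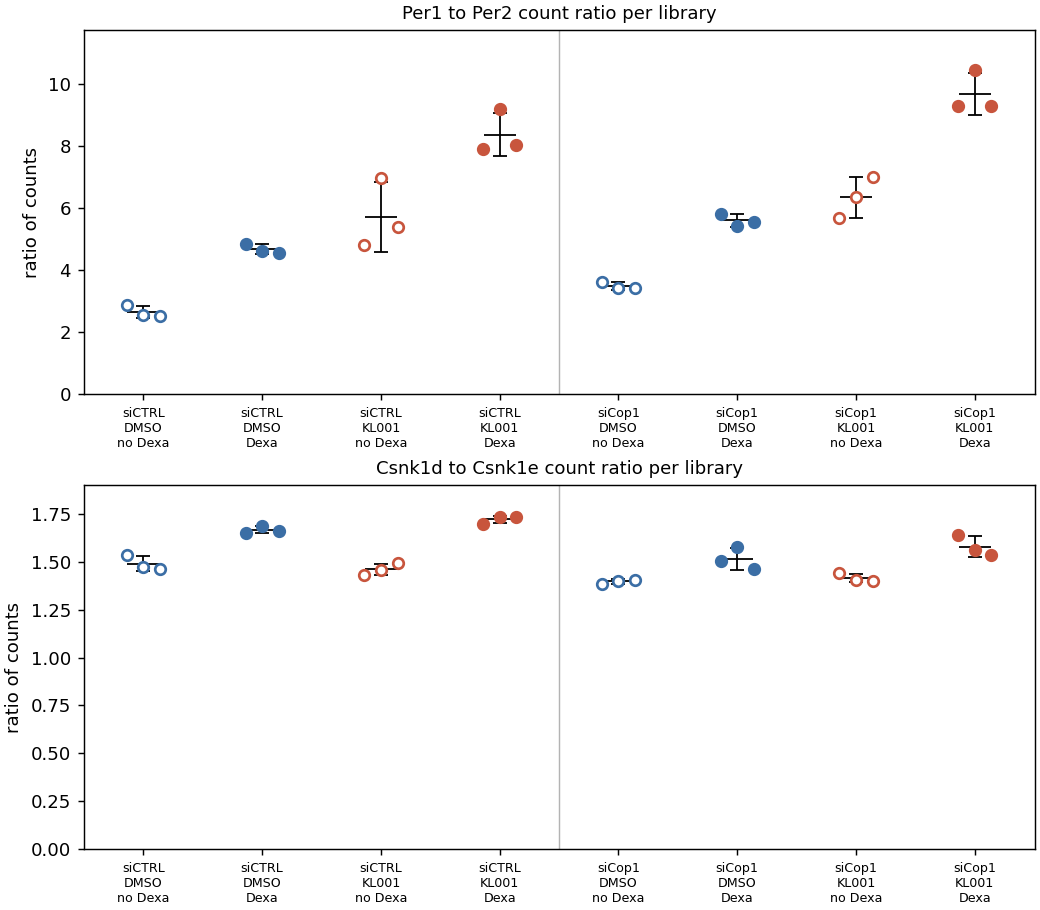
Ratio of Per1 to Per2 counts (top) and of Csnk1d to Csnk1e counts (bottom) in each of the 24 libraries by group; open points are without Dexa, filled points with Dexa, blue is DMSO and red is KL001, and bars show the mean and SD of 3 libraries. The upper ratio rises from 2.64 untreated to 9.68 in siCop1 cells given KL001 and Dexa, and the lower one stays between 1.38 and 1.74.

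Of the kinases, Csnk1e fell with Dexa in all 4 settings and Csnk1d in none. Csnk1e libraries read 119, 129 and 122 CPM in siCTRL DMSO without Dexa and 109, 105 and 106 with Dexa. In siCTRL KL001 they read 128, 124 and 119 CPM without Dexa and 104, 103 and 104 with Dexa. In siCop1 DMSO they read 144, 141 and 141 CPM without Dexa and 129, 126 and 131 with Dexa. In siCop1 KL001 they read 138, 138 and 144 CPM without Dexa and 116, 124 and 126 with Dexa. Every library with Dexa lay below every library without it in the same setting.

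The log2 change of Csnk1e with Dexa was -0.21 (SE 0.036, adjusted p 3.48e-05) in siCTRL DMSO, -0.25 in siCTRL KL001, -0.14 in siCop1 DMSO and -0.20 in siCop1 KL001, decreases of 1.10- to 1.19-fold. Between 27.3% and 41.6% of all genes had a larger log2 change in the same setting. With KL001 Csnk1e changed by -0.08 to 0.00 and passed in no setting (adjusted p 0.269 to 0.979), although the KL001 libraries lay below the DMSO libraries in both settings with Dexa. Csnk1d changed by -0.04 to -0.01 with Dexa and by -0.03 to 0.01 with KL001, and passed in none of those 8 comparisons. The 95% intervals of all 8 lay between -0.10 and 0.07.

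**Figure D4:**
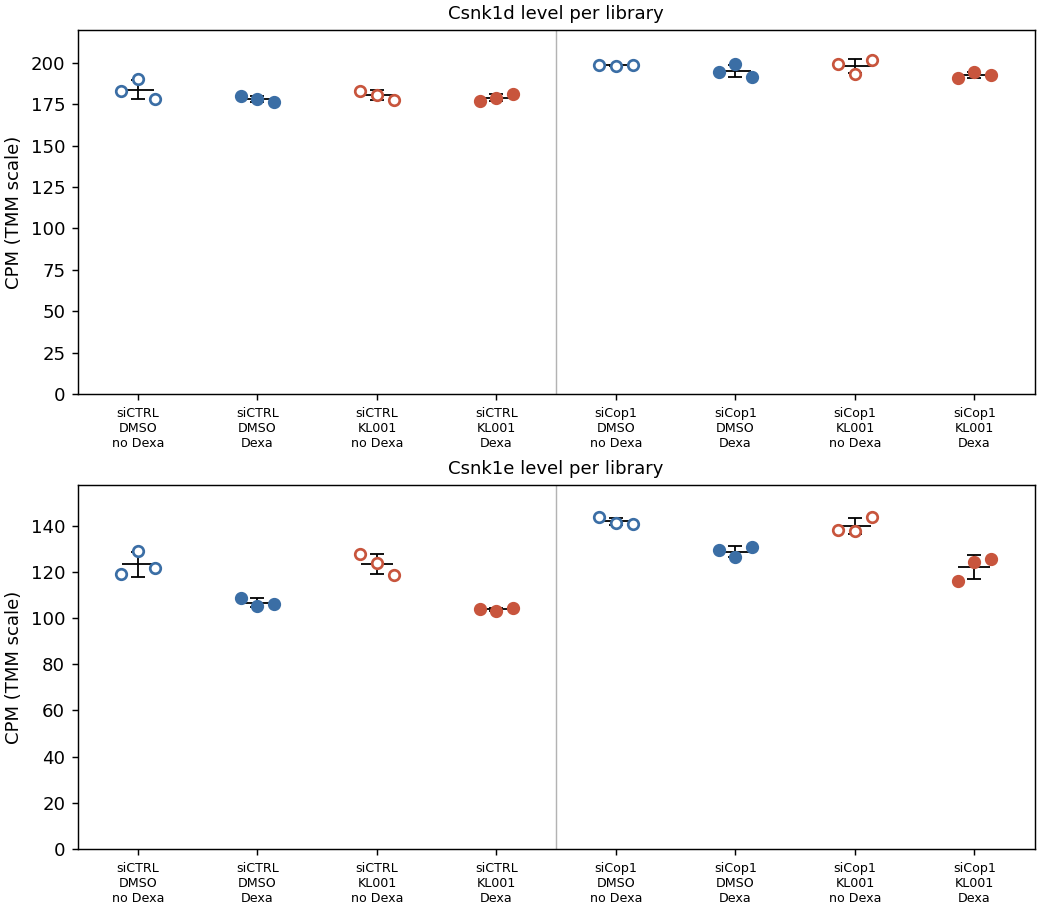
Level of Csnk1d and Csnk1e in each of the 24 libraries, in CPM on the TMM scale, by group; open points are without Dexa, filled points with Dexa, blue is DMSO and red is KL001, and bars show the mean and SD of 3 libraries. Csnk1d lies at 176 to 190 CPM with siCTRL and 191 to 201 CPM with siCop1, and Csnk1e falls with Dexa within each setting.

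The Csnk1d to Csnk1e count ratio rose with Dexa by 0.17 on the log2 scale (exact permutation p 1.25e-05, the smallest possible, adjusted 2.5e-05) and fell with siCop1 by 0.10 (p 2.5e-05, adjusted 4.29e-05). With KL001 it moved by 0.02 (exact permutation p 0.122, adjusted 0.133). Without siCTRL DMSO without Dexa replicate 1 that last value was 0.03 with an adjusted p of 0.0365.

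With siCop1, both kinase genes were higher in all 4 settings, by small amounts. Csnk1d rose by 0.11 without and 0.13 with Dexa in DMSO, and by 0.13 without and 0.11 with Dexa in KL001 (SE 0.028 each, adjusted p 0.000417 to 0.00455). Its 12 siCTRL libraries lay at 176 to 190 CPM and its 12 siCop1 libraries at 191 to 201 CPM, without overlap. Csnk1e rose by 0.20, 0.27, 0.18 and 0.23 in the same order (adjusted p 5.93e-07 to 1.81e-04), again without overlap within any setting. With no filter on low counts the Csnk1d change in KL001 with Dexa was 0.10 with an adjusted p of 0.0804, where the 6 alternatives ranged from 0.000799 to 0.0804. In DMSO, 3 of 5 members passed without Dexa and 3 with it, beside 29.4% and 31.1% of all genes. In KL001, 2 passed without Dexa and 3 with it, beside 32.7% and 30.1%.

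Summed heart muscle markers ran from 0.6776 to 89.43 CPM in siCTRL and 0.7254 to 2.721 CPM in siCop1 libraries, ranges that overlap. Only siCTRL libraries exceeded 10 CPM, namely the whole untreated DMSO group and 1 library in each other siCTRL group. Leaving out the libraries in which the heart marker sum exceeded 10 CPM removed the whole untreated siCTRL DMSO group. In the other 3 settings Csnk1e was then 0.18 to 0.26 higher and Csnk1d 0.11 to 0.14 higher with siCop1, and all 6 still passed. The summed level of the 7 fibroblast markers was 39920 to 50770 CPM in siCTRL and 35020 to 43670 CPM in siCop1 libraries. These pooled ranges overlap, but within every setting the siCop1 libraries lay below the siCTRL libraries without overlap. The 3 neural markers summed to 12.08 to 15.61 CPM in siCTRL and 8.843 to 11.73 CPM in siCop1, without overlap, and nearly all of this was Tubb3, since Sox2 reached at most 0.9046 CPM and Gfap was at 0 in 12 libraries. The 5 macrophage and blood markers summed to 2.551 to 7.36 CPM in siCTRL and 4.322 to 15.1 CPM in siCop1, ranges that overlap. With Dexa, siCop1 lay above siCTRL without overlap in DMSO (6.112 to 9.91 against 3.191 to 5.175 CPM). The same held in KL001 with Dexa (7.485 to 15.1 against 2.551 to 4.345 CPM), while the groups without Dexa overlapped. Lyz2 reached 11.3 CPM, Cd68 3.452 and Csf1r 1.727, while Ptprc was at most 0.2467 CPM and Adgre1 at 0 in 16 libraries. The 5 epithelial markers summed to 2.592 to 10.37 CPM in siCTRL and 5.44 to 43.39 CPM in siCop1, which also overlap. In DMSO with Dexa the groups were separate, at 3.707 to 7.745 CPM in siCTRL and 9.297 to 43.39 CPM in siCop1. They overlapped in the other settings. Krt13, the highest of these markers, reached 30.56 CPM. The part of these shifts in the siCop1 results was not tested.

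Per2 was lower with siCop1, with log2 changes in DMSO of -0.41 (SE 0.090, adjusted p 8.6e-04) without and -0.26 (adjusted p 0.00446) with Dexa, and in KL001 of -0.23 (adjusted p 0.0306) with Dexa. The change in KL001 with Dexa no longer passed without siCTRL replicate 1 (-0.19, adjusted p 0.133), siCTRL replicate 3 (-0.22, 0.0879), siCop1 replicate 1 (-0.25, 0.0511) or siCop1 replicate 2 (-0.16, 0.191). In KL001 without Dexa it was -0.20 (adjusted p 0.229) and did not pass. There it became -0.34 (adjusted p 0.0235) without siCTRL replicate 2, at 5.06 CPM the lowest Per2 library of that group and the one with a heart marker sum of 81.58 CPM. Without siCTRL replicate 1 it was -0.04 (0.864), and without siCop1 replicate 3 it was -0.12 (0.541). Leaving out all libraries over the heart marker limit gave -0.34 with an adjusted p of 0.0142, where the 6 alternatives ranged from 0.0142 to 0.375. From the groups compared here, that refit dropped the same siCTRL replicate 2 and no other library, so it is not a separate check.

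Per1 changed by -0.01 to 0.00 with siCop1 in the 4 settings (adjusted p 0.785 to 0.968), and the 95% intervals lay between -0.09 and 0.08. Per3 changed by -0.16 (adjusted p 0.0529) in DMSO without Dexa and by 0.05 to 0.11 in the other settings, with no call. Its change in DMSO without Dexa passed without siCTRL DMSO without Dexa replicate 1 (-0.21, adjusted p 0.0191) and in 3 of 5 alternatives, whose adjusted p ranged from 0.0221 to 0.0904.

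No interaction of siCop1 with Dexa or KL001 was called for any member. The shares of all genes tested were 0.67% for siCop1 by Dexa in DMSO, 0.562% in KL001, 0% for siCop1 by KL001 without Dexa and 0.0677% with Dexa. For siCop1 by KL001 without Dexa, where edgeR called 0 genes, 982 had an unadjusted p under 0.05, DESeq2 called 11 and the fit with no filter 61. For Per1 the term of siCop1 by Dexa was 0.00 in DMSO (95% interval -0.10 to 0.11) and 0.00 in KL001 (-0.11 to 0.10). For Per2 it was 0.14 (-0.09 to 0.38) and -0.03 (-0.33 to 0.27). Per3 had terms of 0.22 (0.03 to 0.40, adjusted p 0.544) for siCop1 by Dexa in DMSO and 0.23 (0.04 to 0.42, adjusted p 0.69) for siCop1 by KL001 without Dexa. Single libraries moved such terms by over 1.5 times: without siCop1 KL001 without Dexa replicate 2 that Per3 term was 0.14 (adjusted p 0.974). The Per2 term of siCop1 by Dexa in DMSO was 0.22 (adjusted p 0.602) without siCTRL DMSO without Dexa replicate 1 and 0.083 (adjusted p 0.993) without replicate 3 of that group. Terms near 0 moved by as large a factor, and no member's term passed in any of these refits.

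The genes around the members were read from 4 lists, all of whose genes passed the filter. Of 12 genes of the PER and CRY complex, 3 rose and 3 fell with Dexa in siCTRL DMSO, with a median log2 change of -0.05 beside -0.01 over all genes. Over all genes 12.7% were called higher and 14.1% lower in that comparison. With KL001 in siCTRL without Dexa, 1 rose and 3 fell (median 0.00, beside 0.00), Cry1 furthest at -1.97, where 6.73% of all genes were called. Of 19 genes for PER kinases, phosphatases and turnover, 4 rose and 3 fell with Dexa in siCTRL DMSO (median -0.02), beside the same 26.8% of all genes. With KL001, 0 of those 19 changed without Dexa in either cell kind, beside 6.73% of all genes in siCTRL and 4.09% in siCop1. With Dexa 1 changed in each, beside 10.6% and 5.46%, so the counts of this list lie near the background under KL001. The 1 gene that changed was Usp2, a ubiquitin protease (-0.21 in both), which rose with Dexa by 1.57 in siCTRL DMSO.

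With siCop1 in DMSO without Dexa, 1 gene of that kinase list rose and 5 fell (median -0.01, beside -0.01 over all genes), a count of 6 of 19 near the 29.4% of all genes called there. The 1 that rose was Csnk1a1, casein kinase 1 alpha, singled out after its values were seen: it was higher by 0.19, 0.21, 0.22 and 0.22 in the 4 siCop1 comparisons, from DMSO without Dexa to KL001 with Dexa. The 3 gamma forms, Csnk1g1, Csnk1g2 and Csnk1g3, were not called higher in any of them. Csnk1g1 fell in 3 of the 4, with a log2 change of -0.21 in DMSO without Dexa.

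Of 13 E-box activators and clock-driven genes, 4 rose and 5 fell with Dexa in siCTRL DMSO (median -0.15, beside -0.01). That is 9 of 13, beside 26.8% of all genes. The 4 that rose were Nfil3 (1.35), Hlf (1.33), Tef (0.43) and Bhlhe41 (0.30). Among those that fell, Npas2 fell by 0.73 and Nr1d1, the repressor REV-ERB alpha, by 0.68. With KL001 in siCTRL without Dexa 2 rose and 6 fell (median -0.19), beside 6.73% of all genes. Npas2 was at -1.29 and Hlf, a clock-driven factor, at -0.76, whereas Nr1d1 rose by 0.66 and Nr1d2 by 0.22. With siCop1 in DMSO without Dexa 0 rose and 5 fell (median -0.11), Hlf by 0.67 and Dbp by 0.43, beside 12.8% of all genes higher and 16.6% lower. Of 12 genes of glucocorticoid and CREB input, 3 rose and 3 fell with Dexa in siCTRL DMSO (median -0.02), beside 12.7% of all genes higher and 14.1% lower. Fkbp5 rose by 4.30 and Tsc22d3 by 2.73, and Nr3c1, the glucocorticoid receptor, fell by 0.64. In that list 0 rose and 1 fell with KL001 in siCTRL without Dexa, a share near the 6.73% of all genes called there. With siCop1 in DMSO without Dexa 3 rose and 1 fell, a share near the 29.4% of all genes called there. The largest of those rises were in Fkbp5 (0.48) and Crem (0.46).

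Genes with the most similar pattern were ranked by Pearson correlation over the 8 group means of log2 CPM among 10188 genes, as a description of libraries that share cells, treatments and depth. For Per1 they were Zbtb16 (r 0.9999), Itga10 (0.9986) and Pdp1 (0.9982). Zbtb16 had the same shape over a wider range, 2.82 to 64.3 CPM in group means. For Per2 they were Plagl1 (0.989), Dedd2 (0.9881) and Ism1 (0.9867), and the last ran from 7.88 to 44.3 CPM. Plagl1 ran from 38.1 to 66.5 CPM and Dedd2 from 8.48 to 11.3 CPM, since a correlation takes no account of how far a gene moved. For Per3, whose group means spanned 0.38 on the log2 scale, they were Ift88 (0.9417), Phtf2 (0.9282) and Slc8b1 (0.9228). Ift88 was nearly flat, with a span of 0.064, and the other pair spanned 0.27 and 0.23. For Csnk1d, with a span of 0.16, they were Acbd5, Sh3pxd2a and Dcp2 (0.9937 to 0.9965), and for Csnk1e Apcdd1, Brd2 and Six2 (0.9922 to 0.9954). Csnk1e spanned 0.45, beside 1.54 for Apcdd1, 0.14 for Brd2 and 0.93 for Six2. Ranking over the 24 libraries kept 2 of 3 for Per1, 2 for Per2 and 0 for Per3, Csnk1d and Csnk1e. Between members, r over the 8 group means was 0.87 for Per1 with Per2, 0.87 for Csnk1d with Csnk1e and -0.66 for Per1 with Csnk1e.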

How the data were processed

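mRNA of 24 libraries was sequenced. The authors deposited raw counts per gene symbol, 1 column per library; 0 columns were left unused. Per the labels' protocols, libraries used the TruSeq stranded mRNA kit and short single reads over 3 lanes, with no lane given per library. The submitters' processing notes name bcl2fastq 1.8.4, STAR 2.4.5a, Subread 1.4.6-p3, featureCounts, Picard 1.126, DESeq2 and the build GRCm38 (mm10), without roles; the sources used here do not give the strand setting or the handling of shared reads. The deposited normalized table, with signal values that the authors scaled per library, was not used for any value.

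In R 4.3.3, edgeR 4.0.16 (TMM scaling, filterByExpr with minimum count 10 and minimum total 15, robust quasi-likelihood fit) was run on all 24 libraries with 1 mean per group, giving 14 pairwise contrasts and 6 interactions. P-values were two-sided and Benjamini-Hochberg adjusted over 14772 genes; "rose", "fell" and "passed" mean an adjusted p below 0.05. The common biological coefficient of variation was 3.71%. Levels are CPM on the TMM scale. Member ratios (count plus 0.5) were tested by exact permutation within settings. The script was tested on simulated counts. Replicates differed by more than sampling noise (chi-square per degree of freedom 1.567 to 8.541). PCR copies were not told apart.

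The 5 members and the gene lists were chosen with earlier results of these data known. Named genes are the members, Rfwd2, the 3 most similar genes per member (mean of at least 5 CPM) and, per comparison, up to 3 list genes in each direction with the largest called change and a mean of at least 1 CPM. Genes named beyond that rule, such as Csnk1a1, Cry1 with Dexa and further list genes, were chosen after their values were seen. Alternatives were RLE scaling, no filter, DESeq2 1.42.0, a fit on only the groups compared, a block for the replicate number and leaving out each library; leaving out libraries with heart muscle markers above 10 CPM was added after seeing the data.

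Same-numbered libraries deviated together, with every correlation of deviations over 0.1, for Dexa in siCTRL KL001 (0.1648 to 0.464) and KL001 in siCTRL with Dexa (0.1666 to 0.3676). Column names of same-numbered libraries share a stem within each siRNA, but the labels do not state what a number marks. The main fit paired no libraries, and the replicate number entered only as a block among the alternatives.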

Additional observations from a re-analysis of the deposited data

How the results depend on the processing

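Of 100 values for single genes and 12 ratios, 0 changed direction while called. Sign changes of values called in neither fit were not counted. The cause of each change below was not tested.

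With no filter on low counts, Csnk1d under siCop1 in KL001 with Dexa was 0.10 (adjusted p 0.0804), Per2 under KL001 by Dexa in siCTRL 0.46 (0.00516) and Per3 under siCop1 in DMSO without Dexa -0.16 (0.0221). In the fit on only the groups compared, Per1 under KL001 in siCTRL without Dexa was -0.20 (0.103), Per3 under Dexa in siCTRL DMSO -0.18 (0.0674) and Per3 under siCop1 in DMSO without Dexa -0.15 (0.0273). Without libraries above the heart marker limit, Per2 under siCop1 in KL001 without Dexa was -0.34 (0.0142). Of the groups compared, this left out siCTRL replicate 2 alone.

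With the replicate number as a block, Per3 under siCop1 in DMSO without Dexa was -0.16 (adjusted p 0.0471). No other call on a member changed, including those of the 2 comparisons whose same-numbered libraries deviated together. The block moved the genes called from 10 to 5 for KL001 by Dexa in siCop1 and from 10 to 5 for siCop1 by KL001 with Dexa. Over all 14 contrasts, 11 of 42 pairs had a correlation over 0.1 and 15 correlated best with their own number. For KL001 in siCop1 with Dexa, all 3 correlated best with their own number, at 0.03433 to 0.1085.

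Genes called moved by over 1.5 times as follows. For KL001 by Dexa in siCTRL (0) they were 133 with no filter and 3 with DESeq2, and in siCop1 (10) 5 with RLE, 43 with no filter and 24 on only the groups compared. For siCop1 by Dexa they were 230 with no filter in DMSO (99), and 156 with no filter and 52 on only the groups compared in KL001 (83). For siCop1 by KL001 they were 59 with no filter and 18 with DESeq2 with Dexa (10), and 61 and 11 without Dexa (0). On only the groups compared, KL001 called 225 genes in siCTRL without Dexa (994), and in siCop1 950 without (604) and 1435 with Dexa (807).

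Leaving out each library in turn gave these ranges. Per2 under siCop1 ran from -0.29 to -0.16 in KL001 with Dexa and from -0.34 to -0.035 without. Per3 ran from -0.23 to -0.13 under Dexa in siCTRL DMSO, 0.054 to 0.19 under Dexa in siCop1 KL001, -0.24 to -0.10 under KL001 in siCop1 without Dexa and -0.21 to -0.12 under siCop1 in DMSO without Dexa. Under KL001 the Per1 to Per3 ratio ran from 0.080 to 0.11 and the Csnk1d to Csnk1e ratio from 0.017 to 0.031. Genes called ran from 653 (without siCTRL DMSO without Dexa replicate 3) to 1165 for KL001 in siCTRL without Dexa, where all libraries gave 994. With Dexa in siCTRL they ran from 928 to 1416, below the 1560 with all libraries. The count was 928 without siCTRL DMSO with Dexa replicate 1 and 962 without siCTRL KL001 with Dexa replicate 3. With Dexa in siCop1 they ran from 502 to 611, below the 807 with all libraries. The count was 502 without siCop1 KL001 with Dexa replicate 3 and 509 without siCop1 DMSO with Dexa replicate 1. For KL001 by Dexa they ran from 0 to 3 in siCTRL (0 with all libraries) and 1 to 7 in siCop1 (10). For siCop1 by Dexa in KL001 they ran from 43 to 94 (83), and for siCop1 by KL001 from 2 to 10 with Dexa (10) and 0 to 6 without (0).

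Depth limits Per2 most: its lowest library held 123 counts, against at least 784 for the other members.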
